A study of Mus musculus with 10 samples.

Results

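The genes described are the nuclear genes for the respiratory chain and the ATP synthase of the mitochondrion: 86 genes, of 18194 with a probe set of their own symbol, chosen by the start of their symbol (Ndufa, Ndufb, Ndufc, Ndufs, Ndufv without Ndufaf, Sdha to Sdhd, Uqcr, Cox4 to Cox8, Atp5). Of these, 82 encode structural subunits, 34 of complex I, 4 of complex II, 8 of complex III, 19 of complex IV and 17 of the ATP synthase, and 4 (Sdhaf1, Sdhaf2, Sdhaf3, Sdhaf4) are complex II assembly factors that share the prefix. Each gene is represented by its brightest single-symbol probe set over all 10 arrays, and all 86 passed the filter on low signals. Some genes of these families, such as Cox7b, Ndufa11 and Ndufs6, were not analysed here as members, since no probe set is assigned to them and to no other gene in the annotation used.

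RNA from sorted mouse spleen B cells was hybridized to Affymetrix mouse oligonucleotide arrays, 1 sample an array. Germinal centre (GC) B cells of the line called B1-8 (n = 3) came from Balb/c mice with a transgenic VH186.2 heavy chain and a deletion of the endogenous JH locus, and GC B cells of the line called V23 (n = 3) from Balb/c mice with a V23 heavy chain transgene and the same deletion. Mice of both lines received 50 µg of NP-CGG, a hapten on a carrier protein, in alum by the intraperitoneal route, and λ+ PNA+ B220+ cells were sorted at day 14. Naive B cells (n = 4) came from unimmunized Balb/c mice without either allele, so immunization, transgene, JH deletion and stain cannot be told apart in any comparison with naive cells. All samples were kept cold in azide, and no label says that replicates are separate animals, so p-values measure the spread between these samples, which may be technical.

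The respiratory chain passes electrons from NADH (complex I) and succinate (complex II) through coenzyme Q to complex III, then by cytochrome c to complex IV, which reduces oxygen. Complexes I, III and IV pump protons across the inner membrane, and the ATP synthase uses the gradient to make ATP. Every complex but II also holds subunits encoded by mitochondrial DNA, which these prefixes do not cover. Antigen-driven B cells leave a resting state, grow and divide in the germinal centre, and mitochondrial function has been studied in that setting.

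Transcripts for all 5 complexes were more abundant in GC B cells than in naive B cells, in both lines. Set against naive cells, the mean of both GC groups was higher for 60 of the 86 genes and lower for 4 (limma, Benjamini-Hochberg adjusted p under 0.05), where 20.5% of all 17204 tested genes were higher and 21% lower. The median log2 fold change of the 86 genes was 0.41, a fold of 1.33, and that of all tested genes was 0.06. The lead genes by size were Ndufb1 (complex I) at 1.69 ± 0.12, Cox7a1 (complex IV) at 1.26 ± 0.21, Atp5a1 (ATP synthase) at 1.23 ± 0.09 and Sdhb (complex II) at 1.2 ± 0.07, each a log2 fold change of the GC mean against naive ± SE. Cox7a1 is a heart and muscle isoform with a dim probe set (log2 5.59 to 5.99 in naive samples). Among the ubiquitous subunits of complex IV, Ndufa4 rose most, by 0.91. The 4 lower genes were Cox7c, Cox6a2, Sdhaf1 and Ndufa6.

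Each line gave much the same picture on its own. GC B1-8 cells were higher than naive cells for 52 genes and lower for 3, against 16.4% and 17.3% of all tested genes. GC V23 cells were higher for 56 and lower for 3, against 18.2% and 19.7% of all tested genes. Both lines passed as higher for 49 genes (14.5% of all tested genes did so) and as lower for 2, Cox7c and Sdhaf1 (15.5% of all tested genes). Both comparisons use the same 4 naive arrays. All 6 GC arrays lay above all 4 naive arrays for 59 genes and below them for 3, where 17% and 18.5% of all tested genes separated in those directions.

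These are bright probe sets, and bright genes passed the test more often on these arrays. Of the 86 genes 74 averaged above log2 10, and 58 of those (78.4%) were higher in the GC mean and 1 lower. Among all 4406 tested genes that averaged above log2 10, a background chosen after the values were seen, 37.5% were higher and 27.8% lower, with a median log2 fold change of 0.07. Neutrophil transcripts also differed: all 8 neutrophil markers measured (such as S100a8 and Ltf) were higher in GC arrays, with a list mean of log2 11.43 to 11.59 in GC B1-8, 10.75 to 11.71 in GC V23 and 7.26 to 9.43 in naive samples. Of 6 plasma cell markers, 2 were higher in the GC mean and 0 lower. Erythroid markers were split, 1 higher and 2 lower of 4, and platelet markers were lower for 3 of 4 and higher for 0. T cell and macrophage markers each had 1 lower of 5 tested and 0 higher. Of all tested genes 20.5% were higher and 21% lower. The part of these transcripts in the results was not tested. In such bulk samples fewer cells of a type and less RNA per cell cannot be told apart. The 5 GC markers measured were all higher and the 5 naive follicular markers all lower in GC arrays, and the 5 pan-B cell markers averaged log2 12.91 to 13.16 in GC B1-8, 12.61 to 12.98 in GC V23 and 13.32 to 13.48 in naive samples. Naive replicates 2 and 4 stood apart, with GC marker means of log2 9.80 and 9.01 where replicates 1 and 3 had 8.08 and 8.24, and replicate 4 also held the highest naive neutrophil mean; without that pair of arrays 47 genes were higher and 3 lower in the GC mean. An indirect measure of RNA integrity differed as well, and no label gives RNA quality. The 3′ minus 5′ signal of the Actb control probe sets was highest in naive samples. It was 0.98 ± 0.20 in GC B1-8, 0.78 ± 0.08 in GC V23 and 1.46 ± 0.17 in naive samples (log2, SD). The GC minus naive difference was −0.59 (exact permutation test, two-sided, p = 0.00476 over 210 regroupings, the smallest they can give). For Gapdh the difference was smaller, −0.36 (exact permutation test, two-sided, p = 0.0143). The part of these differences in the results was not tested either.

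**Figure D1:**
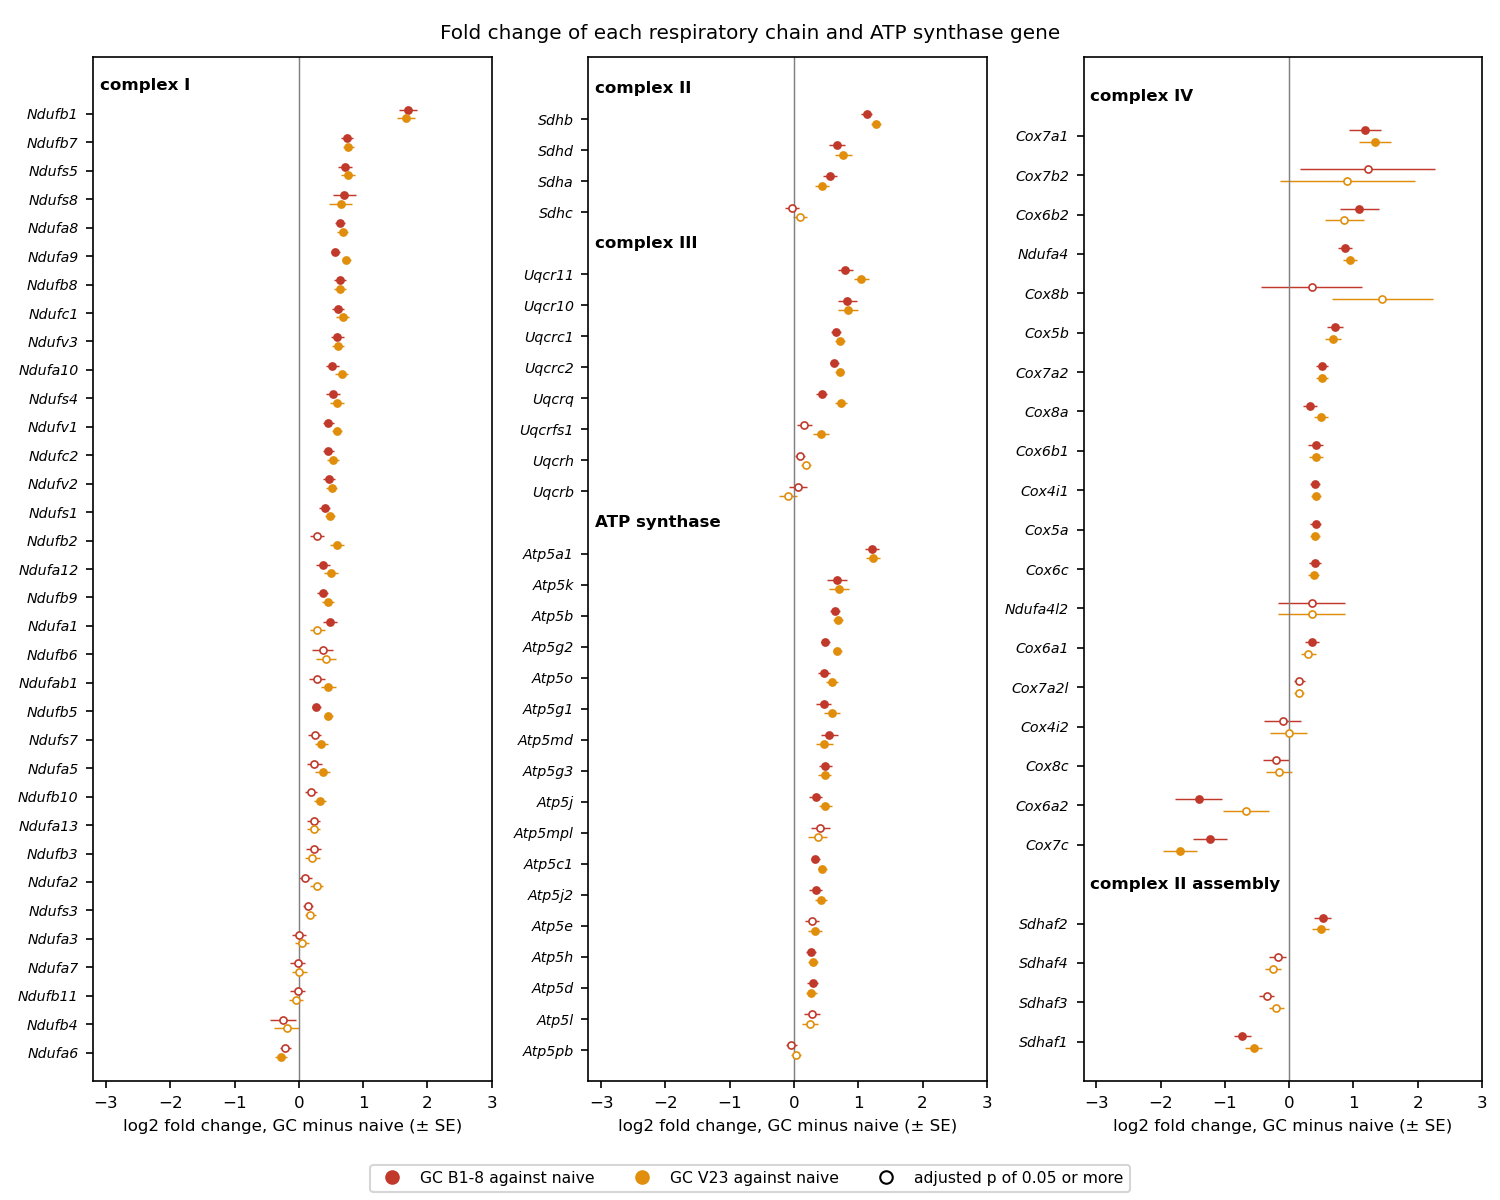
Log2 fold change (± SE) of each of the 86 genes in GC B1-8 (red) and GC V23 (orange) cells against naive cells, grouped by complex and ordered by the GC mean. Filled points passed the test in that line; most of complexes I, II, III and V lie right of 0, and Cox7c and Sdhaf1 lie left of 0 in both lines.

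The 86 genes lie on 19 chromosomes, and promoter sequences are shown because most of them passed in the same direction and because the pathway's known regulators bind short strings near such start sites. RefSeq promoter windows (GRCm38.p6, 250 bases before to 50 after the start) were found for 71 of the 86 genes, 76 windows in all. They were searched on both strands for GCGCANGCG (the core of the NRF1 site), CTTCCGG (the core bound by ETS factors such as GABPA) and AAGATGGC (the core of the YY1 site). The lines below give the 120 bases before the start, 5′ to 3′ on the gene's strand, for 7 genes that rose in both lines, picked after the values were seen to include printed stretches with and without a match. Capitals mark a match to one of the strings, and the NRF1 matches of Atp5k overlap on opposite strands. The names in brackets cover only the 120 printed bases: past the start site the full windows of Sdhb and Atp5k also hold an ETS match, and that of Uqcr11 holds an NRF1 match across it.
Ndufb1 (chr12:101975739-101975858, minus strand, no match in the stretch shown): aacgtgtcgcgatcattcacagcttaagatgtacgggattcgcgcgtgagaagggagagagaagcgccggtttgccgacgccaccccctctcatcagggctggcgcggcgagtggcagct
Sdhb (chr4:140961151-140961270, plus strand, no match in the stretch shown): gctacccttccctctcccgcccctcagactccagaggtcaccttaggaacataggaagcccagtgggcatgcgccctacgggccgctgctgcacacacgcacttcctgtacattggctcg
Uqcr11 (chr10:80406822-80406941, minus strand, ETS): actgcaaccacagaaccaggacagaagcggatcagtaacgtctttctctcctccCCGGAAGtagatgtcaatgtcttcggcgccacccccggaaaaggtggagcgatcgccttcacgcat
Ndufb7 (chr8:83566638-83566757, plus strand, ETS): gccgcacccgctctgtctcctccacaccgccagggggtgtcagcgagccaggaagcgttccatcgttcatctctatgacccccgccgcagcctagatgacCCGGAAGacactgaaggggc
Ndufs5 (chr4:123718187-123718306, minus strand, NRF1): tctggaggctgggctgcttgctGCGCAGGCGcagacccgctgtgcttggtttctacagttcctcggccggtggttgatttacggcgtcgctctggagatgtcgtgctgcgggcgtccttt
Sdhd (chr9:50603850-50603969, minus strand, NRF1 and ETS): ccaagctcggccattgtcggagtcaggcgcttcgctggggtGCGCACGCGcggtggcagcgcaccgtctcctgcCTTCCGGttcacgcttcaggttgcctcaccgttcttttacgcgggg
Atp5k (chr5:108434400-108434519, minus strand, NRF1 on both strands): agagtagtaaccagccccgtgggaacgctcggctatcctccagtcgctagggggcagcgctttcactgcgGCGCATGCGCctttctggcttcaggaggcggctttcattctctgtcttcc

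The NRF1 string occurred in 27.6% of the genes' windows and in 6.25% of all 32851 windows. The ETS string occurred in 26.3% of the genes' windows and in 8.86% of all windows, and the YY1 string in 11.8% and 2.75%. Among all protein-coding windows the shares were 8.58%, 11.6% and 3.05%. Fold changes were of similar size with and without the strings: the 41 genes with any of the 3 had a median log2 fold change of 0.41 in the GC mean against naive (31 higher, 2 lower), and the 30 with none had 0.49 (21 higher, 1 lower). A match is a description of letters in the window, and no match says only that these letters are not in the bases searched.

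Complex I oxidises NADH. Its 34 genes had a median log2 fold change of 0.42 in the GC mean against naive, with 25 higher and 1 lower. The 6 measured nuclear core subunits, which carry the flavin and the iron-sulfur clusters or link them to the membrane arm, were higher in 5 cases: Ndufv1, which holds the flavin that takes electrons from NADH, by 0.53 ± 0.07 (adjusted p = 0.000249), Ndufv2 by 0.49 ± 0.07, Ndufs1 by 0.45 ± 0.07, Ndufs8 by 0.68 ± 0.15 and Ndufs7 by 0.30 ± 0.08. The Ndufs7 call was lost without naive replicate 1 or 2. Its other probe set, about as bright (1424313_a_at), gave 0.02 ± 0.10 and did not pass. For Ndufs8 (1434579_x_at), a probe set about as bright (1423907_a_at) gave 0.31 ± 0.12 and did not pass. Other Ndufs8 probe sets passed as higher (1423908_at, 1434213_x_at, 1455283_x_at) or did not pass (1434212_at, −0.33 ± 0.12). The Ndufs8 call was lost when probe sets ending in _x_at or _s_at were avoided. Ndufs3 had a log2 fold change of 0.16 ± 0.07 and did not pass (adjusted p = 0.107), although its GC and naive arrays did not overlap.

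Of the 28 accessory subunits of complex I, which surround and stabilise the core, 20 were higher and 1 lower in the GC mean. Ndufb1 (probe set 1454771_at) had log2 signals of 11.03, 11.21 and 11.00 in GC B1-8, 11.16, 10.84 and 11.16 in GC V23, and 9.24, 9.60, 9.53 and 9.15 in naive samples. Its lowest GC array stood well above its highest naive array, at a fold of 3.22 (adjusted p = 1.35e-05). Ndufa9 (1416663_at), a subunit near the coenzyme Q site, read 12.00, 12.02 and 11.93 in GC B1-8, 12.11, 12.15 and 12.21 in GC V23, and 11.38, 11.42, 11.39 and 11.48 in naive samples, a fold of 1.57 (adjusted p = 6.04e-05). Ndufb7 and Ndufa8 rose by 0.76 ± 0.07 and 0.66 ± 0.07 on the log2 scale, also with no overlap of arrays. Ndufa6 (1448427_at) went the other way, with 11.98, 12.02 and 11.89 in GC B1-8, 11.94, 11.86 and 11.90 in GC V23, and 12.21, 12.22, 12.25 and 12.03 in naive samples. Its difference of −0.24 ± 0.07 passed (adjusted p = 0.0252) without overlap, by the margin between GC B1-8 replicate 2 and naive replicate 4, and the call was lost when any of 5 single arrays was left out (naive replicate 1, 2 or 3, GC B1-8 replicate 3 or GC V23 replicate 2). Ndufb4, Ndufb11, Ndufa7 and Ndufa3 lay between −0.22 and 0.02 and did not pass. Calls for Ndufa5, Ndufb6 and Ndufb10 were each lost when any of 7 or 8 of the 10 arrays was left out singly, and that for Ndufab1 without naive replicate 1 or 4.

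Complex II, succinate dehydrogenase, is the enzyme shared by the TCA cycle and the chain. Sdhb, its iron-sulfur subunit (1418005_at), had log2 signals of 12.45, 12.57 and 12.33 in GC B1-8, 12.63, 12.57 and 12.61 in GC V23, and 11.27, 11.37, 11.33 and 11.31 in naive samples. That is a fold of 2.30 with tight groups (adjusted p = 5.36e-06), the smallest p of the 86 genes. The flavoprotein gene Sdha (1426688_at) read 12.42, 12.35 and 12.37 in GC B1-8, 12.43, 12.34 and 12.00 in GC V23, and 11.84, 11.81, 11.76 and 11.87 in naive samples, a fold of 1.41. GC V23 replicate 3 was the lowest GC array for Sdha and still lay above every naive array. Among other Sdha probe sets, 1426689_s_at gave 0.17 ± 0.11 and did not pass, and the dimmer 1433293_at passed as lower at −1.77 ± 0.51. A further probe set (1433292_at) averaged log2 2.63 to 3.23 by group, too low to be tested. The mean over all of the Sdha probe sets, this one included, was −0.15 in the GC mean.

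The membrane anchors of complex II, which hold its heme, differed from each other. Sdhd (1428235_at) read 11.24, 11.06 and 10.74 in GC B1-8, 11.09, 11.20 and 11.06 in GC V23, and 10.34, 10.43, 10.43 and 10.16 in naive samples, a fold of 1.65 (adjusted p = 0.00083). Its other probe set (1437489_x_at) gave −0.03 ± 0.23 and did not pass. Sdhc (1435986_x_at) read 10.61, 10.60 and 10.62 in GC B1-8, 10.73, 10.84 and 10.62 in GC V23, and 10.82, 10.44, 10.59 and 10.70 in naive samples. Its groups overlapped, and its log2 difference was 0.03 ± 0.09 (adjusted p = 0.81); its other probe set (1448630_a_at), which averaged less, was higher by 0.30 ± 0.09 (adjusted p = 0.0308 in a fit over all probe sets). The assembly factors also differed in sign: Sdhaf1, which helps insert the iron-sulfur clusters of Sdhb, fell by 0.64 on the log2 scale (SE 0.11, adjusted p = 0.00175), and Sdhaf2, which helps attach the flavin to Sdha, rose by 0.50 ± 0.11. Sdhaf3 and Sdhaf4 did not pass, with log2 fold changes of −0.27 ± 0.10 and −0.22 ± 0.11.

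Complex III carries electrons from coenzyme Q to cytochrome c, and 5 of its 8 genes were higher in the GC mean, with none lower and a median log2 fold change of 0.62. The core protein gene Uqcrc2 (1428631_a_at) read 12.49, 12.58 and 12.52 in GC B1-8, 12.57, 12.60 and 12.66 in GC V23, and 11.90, 11.92, 11.93 and 11.87 in naive samples, a fold of 1.59 (adjusted p = 4.67e-05). Its partner Uqcrc1 rose by 0.69 ± 0.07. Among the small accessory subunits, Uqcr11 rose by 0.93 ± 0.10, Uqcr10 by 0.83 ± 0.12 and Uqcrq by 0.58 ± 0.08 on the log2 scale. A dimmer Uqcrq probe set (1427880_at) gave −0.08 ± 0.17 and did not pass.

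The other complex III genes gave smaller differences. Uqcrfs1, the Rieske iron-sulfur protein (1450968_at), read 11.72, 11.18 and 11.38 in GC B1-8, 11.70, 11.74 and 11.64 in GC V23, and 11.20, 11.30, 11.32 and 11.26 in naive samples. GC V23 lay above the naive arrays and passed (0.42 ± 0.12, adjusted p = 0.026), while GC B1-8 replicate 2 fell below them and that line did not pass (0.16 ± 0.12, adjusted p = 0.381). The GC V23 call was lost when naive replicate 1 or 4 or any single GC V23 array was left out. The difference of GC B1-8 from GC V23 was −0.27 ± 0.13 (adjusted p = 0.695). Uqcrb, with −0.02 ± 0.12, and Uqcrh, with 0.14 ± 0.07, did not pass for the GC mean.

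Complex IV, cytochrome c oxidase, had a median log2 fold change of 0.41 and the widest spread of its genes, with 11 of 19 higher and 2 lower. Its 11 ubiquitous subunits were higher in 9 cases. Ndufa4, once assigned to complex I and now placed in complex IV (1424085_at), read 12.66, 12.58 and 12.37 in GC B1-8, 12.72, 12.55 and 12.55 in GC V23, and 11.73, 11.73, 11.72 and 11.49 in naive samples, a fold of 1.87 (adjusted p = 8.25e-05). Cox5b rose by 0.70 ± 0.10, Cox7a2 by 0.51 ± 0.09, Cox4i1 by 0.41 ± 0.07, Cox6b1 by 0.41 ± 0.09, Cox8a by 0.41 ± 0.09, Cox5a by 0.40 ± 0.07 and Cox6a1 by 0.33 ± 0.10. The Cox6a1 call was lost when naive replicate 1 or 4 or GC B1-8 replicate 1 or 2 was left out. Cox7a2l, which joins complexes III and IV in supercomplexes, did not pass (0.15 ± 0.07, adjusted p = 0.108), although its GC and naive arrays did not overlap; its other probe sets, nearly as bright, were higher by 0.29 ± 0.09 (1432263_a_at, adjusted p = 0.0341) and 0.44 ± 0.08 (1432264_x_at, adjusted p = 0.00356) in the fit over all probe sets.

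Cox7c, a small ubiquitous subunit, was the lowest of the 86. Its probe set 1459885_s_at read 8.90, 8.03 and 8.08 in GC B1-8, 8.20, 8.10 and 7.30 in GC V23, and 9.56, 9.53, 9.59 and 9.56 in naive samples. Every GC array was below every naive array, with a log2 fold change of −1.46 ± 0.23 (adjusted p = 0.000875). The other Cox7c probe set (1459884_at) was lower by a similar amount, −1.38 ± 0.12, and neither averaged above log2 10, while the probe sets that represent the other ubiquitous complex IV subunits all did.

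The 8 isoforms of complex IV that are restricted to muscle, testis, lung or hypoxic cells in adult mammals gave signals below log2 10 on average, and most did not pass. Cox7a1, the heart and muscle isoform (1418709_at), read 7.14, 7.04 and 6.84 in GC B1-8, 7.82, 6.63 and 7.02 in GC V23, and 5.80, 5.59, 5.99 and 5.90 in naive samples, a fold of 2.40 with no overlap (adjusted p = 0.0015). Cox6b2, the testis isoform, rose by 0.97 ± 0.25 on the log2 scale, with GC V23 replicate 3 inside the naive range. Cox6a2, the heart and muscle isoform, read 5.71, 6.70 and 5.63 in GC B1-8, 7.23, 7.04 and 6.01 in GC V23, and 7.25, 7.77, 7.20 and 7.49 in naive samples. It was lower for the GC mean (−1.04 ± 0.30, adjusted p = 0.0223), GC B1-8 passed on its own and GC V23 did not (−0.67 ± 0.36, adjusted p = 0.183), and the call for the mean was lost without naive replicate 2 or 4. Cox4i2, Cox7b2, Cox8b, Cox8c and Ndufa4l2 did not pass, and Cox7b2 and Cox8b each had arrays below log2 4, where values carry little order.

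The ATP synthase was the complex with the largest share of passing genes, 15 of 17 higher and none lower, with a median log2 fold change of 0.41. All 5 genes of the F1 head and central stalk were higher. Atp5a1, the alpha subunit (1423111_at), read 13.65, 13.65 and 13.54 in GC B1-8, 13.61, 13.74 and 13.49 in GC V23, and 12.28, 12.56, 12.25 and 12.46 in naive samples, a fold of 2.34 (adjusted p = 1.6e-05). Atp5b, the catalytic beta subunit (1416829_at), read 13.54, 13.65 and 13.67 in GC B1-8, 13.56, 13.73 and 13.68 in GC V23, and 12.95, 13.07, 12.92 and 12.98 in naive samples, a fold of 1.58 (adjusted p = 0.000106). Both genes separated fully between GC and naive arrays, and the remaining F1 genes moved less: Atp5c1 (gamma) by 0.39 ± 0.06, Atp5e (epsilon) by 0.31 ± 0.09 and Atp5d (delta) by 0.28 ± 0.07. The dimmer Atp5c1 probe set (1438809_at) passed as lower, at −1.43 ± 0.21, so the direction for Atp5c1 depends on the probe set. The Atp5e call was lost when any of 5 single arrays was left out (naive replicate 2 or 4, GC B1-8 replicate 1, GC V23 replicate 1 or 3).

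The c-ring genes Atp5g1, Atp5g2 and Atp5g3, which encode the same mature protein, rose by 0.52 ± 0.10, 0.58 ± 0.06 and 0.48 ± 0.08; a dimmer Atp5g2 probe set (1456128_at) passed as lower, at −0.84 ± 0.20. In the peripheral stalk, which holds the head still, Atp5o rose by 0.53 ± 0.08 and Atp5pb (1433562_s_at) did not pass. Atp5pb read 13.25, 13.26 and 13.14 in GC B1-8, 13.19, 13.34 and 13.31 in GC V23, and 13.28, 13.19, 13.32 and 13.23 in naive samples, so its groups overlapped at a log2 difference of −0.00 ± 0.07; its other probe set (1426742_at) was higher by 0.44 ± 0.08 (adjusted p = 0.00345 in a fit over all probe sets). Of the 5 small membrane subunits 4 were higher, led by Atp5k (0.69 ± 0.13), and Atp5l was not called (0.26 ± 0.11, adjusted p = 0.0874). The call for Atp5mpl was lost when any of 8 of the 10 arrays was left out singly.

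**Figure D2:**
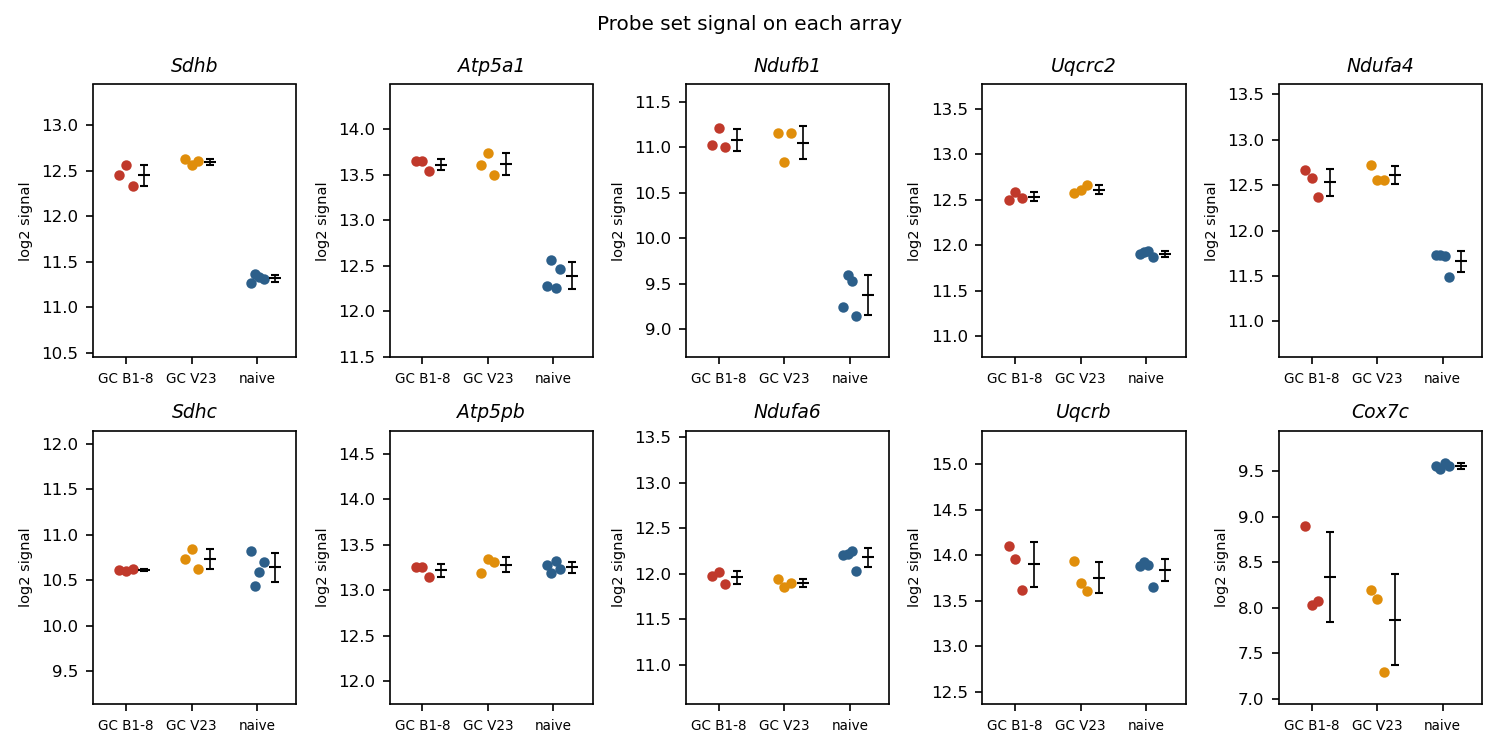
Deposited log2 signal on each array for 10 of the genes, with the group mean and SD as bars beside the points. The vertical axes span the same range of log2 units in every panel, but lie at different levels and do not start at 0. Sdhb, Atp5a1, Ndufb1, Uqcrc2 and Ndufa4 (top) have every GC array above every naive array, Sdhc, Atp5pb and Uqcrb overlap, and Ndufa6 and Cox7c lie lower in GC.

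Set side by side, the complexes differed little in their medians beside the spread of their own genes. In GC B1-8 against naive, the median log2 fold change was 0.37 for complex I, 0.62 for II, 0.53 for III, 0.40 for IV and 0.41 for the ATP synthase. In GC V23 against naive it was 0.48, 0.61, 0.71, 0.42 and 0.47 in the same order, beside 0.05 (B1-8) and 0.06 (V23) for all tested genes. No test was made between complexes, since their genes share arrays and are not replicates. Averaged over its genes on each array, every complex stood higher on each GC array than on each naive array: complex I lay 0.27 to 0.46 above the naive mean in GC B1-8 and 0.42 to 0.49 above it in GC V23, while naive arrays ranged from −0.06 to 0.04. For complex IV the margin of these means was narrow, with 0.22 as its lowest GC value and 0.18 as its highest naive value. By the median over its genes the margin was wider: complex IV lay at 0.29 to 0.51 on GC arrays and −0.03 to 0.07 on naive arrays. GC B1-8 replicate 3 was the lowest GC B1-8 array for all 5 complexes.

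**Figure D3:**
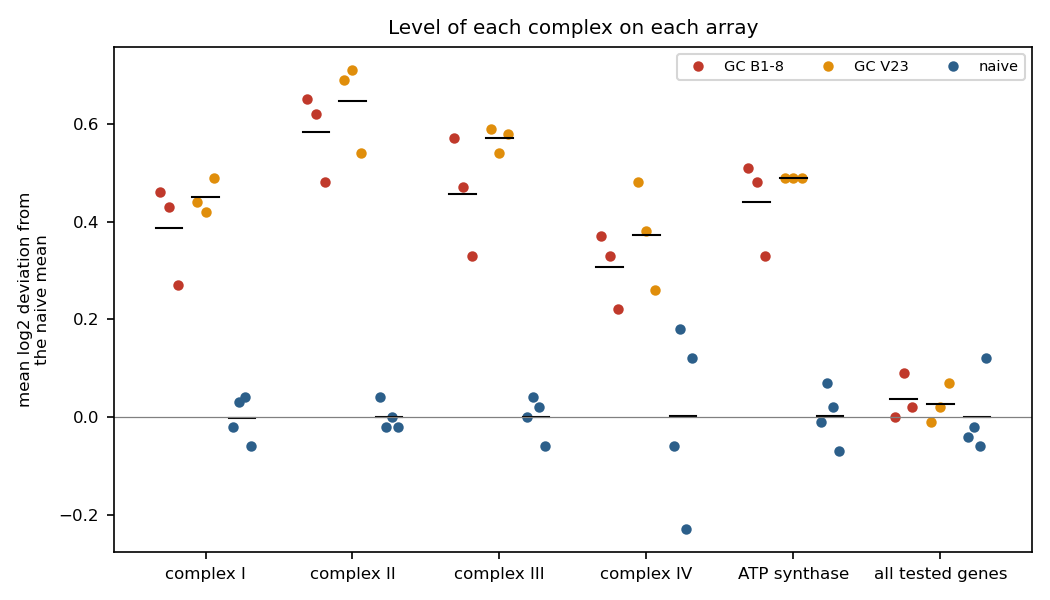
Mean log2 deviation of the genes of each complex from their naive mean, 1 point per array, with a black line at each group's mean. All GC points lie above all naive points in the 5 complexes, while the points over all tested genes range from −0.06 to 0.12 and overlap.

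No difference between GC B1-8 and GC V23 cells was called in these genes. None of the 86 passed in GC B1-8 against GC V23 (limma), where 0.0233% of all tested genes (4 genes) did, and 4 of the 86 had an unadjusted p under 0.05, against 7.72% of all tested genes. Those 4 were Uqcrq (−0.30 ± 0.10, unadjusted p = 0.0139), Ndufb2 (−0.31 ± 0.11), Ndufb5 (−0.19 ± 0.08) and Atp5g2 (−0.18 ± 0.08), as log2 fold changes of GC B1-8 against GC V23. Their adjusted p-values lay between 0.555 and 0.631, and Uqcrq read 11.31, 11.27 and 11.15 in GC B1-8 and 11.68, 11.41 and 11.55 in GC V23. The GC B1-8 mean was the lower of the 2 lines for 59 of the 86 genes, at a median log2 difference of −0.05 where all tested genes had 0.00. It was the higher for 8757 of all 17204 tested genes, and for 13 of the 76 mitochondrial ribosomal protein genes. All GC B1-8 arrays lay below all GC V23 arrays for 10 of the 86 genes and above them for none. Of all tested genes, 1140 and 1217 separated in those directions. The median 95% interval of a gene reached 0.26 to either side, over the 84 genes with no array below log2 4. The medians by complex were −0.06 for I, −0.11 for II, −0.09 for III, 0.00 for IV and −0.04 for the ATP synthase.

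Many of these genes have further probe sets, which are described here by their brightness. The 86 genes have 175 single-symbol probe sets, and in a fit over all probe sets 94 of the 127 averaging above log2 10 were higher in the GC mean and none lower, where all probe sets of that brightness gave 36.9% higher and 24.4% lower. Of the 34 averaging log2 6 to 10, 5 were higher and 10 lower, shares (14.7% and 29.4%) near those of all probe sets of that range (17.4% and 26.1%). For 6 genes (Atp5c1, Atp5g2, Atp5j2, Cox8a, Ndufab1, Sdha) probe sets passed in opposite directions, and in each the brightest was higher and a dimmer one lower. The Atp5c1 probe sets differed by 0.39 ± 0.08 (1416058_s_at) and −1.43 ± 0.21 (1438809_at), and those of Ndufab1 by 0.37 ± 0.11 (1428159_s_at) and −2.28 ± 0.26 (1435934_at). Of the other genes with several probe sets, 15 had all of them pass in the same direction, 23 some, and 7 none. Which transcript part each probe set reads was not tested here.

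**Figure D4:**
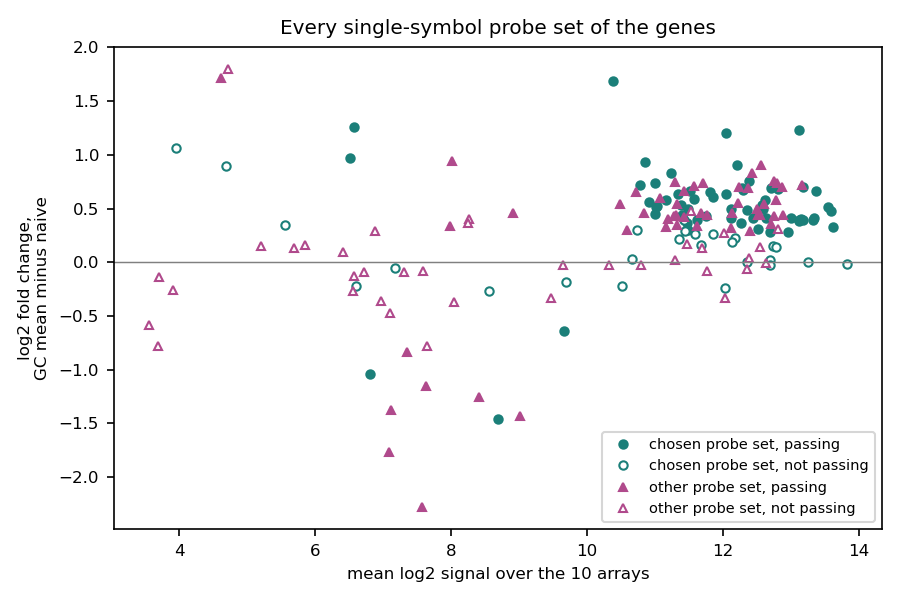
Log2 fold change of the GC mean against naive for the single-symbol probe sets of the 86 genes that passed the low-signal filter, against mean log2 signal over the 10 arrays, in a fit over all probe sets. Circles are the probe sets that represent a gene (57 higher and 3 lower there) and triangles the others; filled symbols passed, and above log2 10 no filled symbol lies below 0.

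Genes that work with the chain were set beside it as lists chosen by function, in the GC mean against naive. Of all tested genes, 20.5% were higher and 21% lower in that comparison. Carriers and import proteins of the mitochondrial membranes were higher for 14 of 19 and lower for none, at a median of 0.46: Tomm40, the pore of the outer membrane translocase, rose by 1.57 ± 0.09 and Tomm22, its receptor, by 0.71 ± 0.07, and the metabolite channels Vdac3 and Vdac2 by 1.07 ± 0.07 and 0.69 ± 0.06. Mitochondrial ribosomal proteins, which serve translation of the subunits encoded in the organelle, were higher for 51 of 76 and lower for 1, at a median of 0.42. TCA cycle and pyruvate dehydrogenase genes, which supply NADH and succinate, were higher for 9 of 14 and lower for 1, at a median of 0.36, with Idh3a at 0.97 ± 0.13, Suclg1 at 0.81 ± 0.10, Suclg2 at 0.73 ± 0.10 and Pdha1 at 0.52 ± 0.07.

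Other lists had medians nearer to 0. Assembly factors of the complexes were higher for 10 of 42 and lower for 7, near the 20.5% and 21% of all tested genes, with a median of 0.04: Coa7 (complex IV) rose by 1.13 ± 0.16, Uqcc2 (complex III) by 0.83 ± 0.10 and Cox10 (heme for complex IV) by 0.47 ± 0.06, and Ndufaf4 (complex I) fell by 0.86 on the log2 scale (SE 0.12). Electron carriers and coenzyme Q genes were split, 7 higher and 6 lower of 19, with Etfa (0.92 ± 0.08) and cytochrome c1, Cyc1 (0.84 ± 0.08), higher, and Coq2, an enzyme of coenzyme Q synthesis (−1.04 ± 0.08), and Dhodh, the pyrimidine enzyme that feeds electrons to coenzyme Q (−0.86 ± 0.07), lower. Cyc1 is itself a complex III subunit whose symbol is outside the prefixes. Uncoupling and oxygen defence genes had 1 of 9 higher, Txn2 (0.72 ± 0.10), and none lower.

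Regulators of mitochondrial biogenesis and of mitochondrial DNA upkeep went mostly down, with 11 of 19 lower and 2 higher and a median of −0.29. Ppargc1b, a coactivator of respiratory genes, fell by 1.19 on the log2 scale (SE 0.12), Mterf3, which restrains mitochondrial transcription in mouse, by 0.94 (SE 0.07), Twnk, the mitochondrial DNA helicase, by 0.57 (SE 0.08) and Gabpb2, a partner subunit of GABPA, by 0.54 (SE 0.08). Ppargc1b read below log2 10 on every array, so it lies outside the brightness range of most subunit genes.

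**Figure D5:**
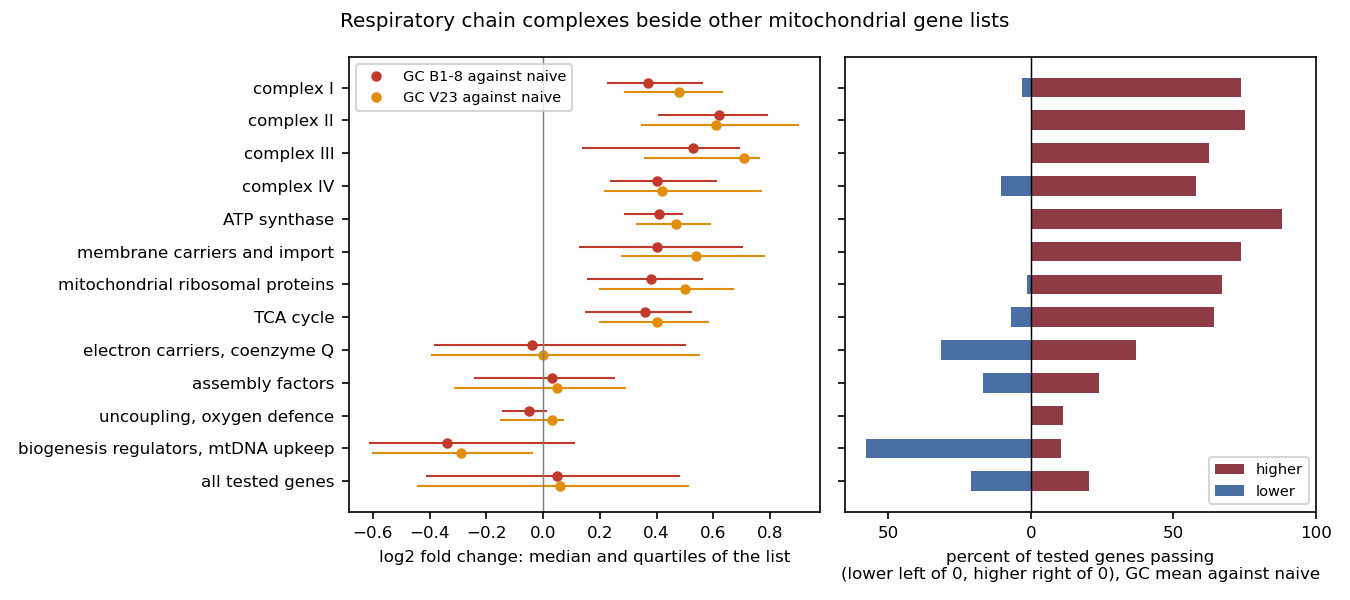
Left, median and quartiles of the log2 fold changes of each complex and functional list in GC B1-8 (red) and GC V23 (orange) against naive; right, the percent of tested genes passing as higher (right of 0) or lower (left of 0) in the GC mean against naive. The complexes, membrane carriers, mitochondrial ribosomal proteins and TCA cycle lie right of all tested genes, and biogenesis regulators left of them.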

How the data were processed

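Expression was measured on 10 arrays. The authors deposited log2 probe set signals; the submitters' processing notes name GCRMA without a version, but the unlogged values have a mean of 500 on every array after trimming 2% at each end, the form of MAS5 signals, and were used as deposited. Of 45101 probe sets, 34958 carry 1 gene symbol, 932 several and 9211 none in the platform annotation. The brightest single-symbol probe set of each of 18194 genes was kept, and the 17204 above log2 4 on at least 3 arrays were tested with limma 3.58.1 (R 4.3.3): group means over 10 arrays, empirical Bayes moderation without trend, two-sided, Benjamini-Hochberg within each comparison, threshold 0.05. Fold changes carry ± SE and levels ± SD. Arrays give no counts, and their number limits precision. Members and lists were chosen with earlier results of these data known. Named genes are, per complex, up to 4 with the smallest p among those passing in both lines without overlap, the 2 lowest, catalytic subunits and isoform pairs, the 4 smallest p between lines, prefix matches that are no subunit, up to 4 per list, and genes whose probe sets pass in opposite directions; a few other members are named, chosen after their values were seen. Same-numbered replicates did not deviate together (r between −0.02 and 0.07), so they were not paired. Python 3.11.15 with pandas 2.3.3 and matplotlib 3.10.9 made the summaries and figures.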

Additional observations from a re-analysis of the deposited data

Results flagged for a closer look

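Among the 60 named genes of the respiratory chain and ATP synthase, 3 had a naive array far from the other naive arrays by Dixon's criterion for 4 samples. Ndufa4 read log2 11.49 in naive replicate 4, where the others lay between 11.72 and 11.73. Cox6b1 read 12.62 in naive replicate 4, where the others lay between 12.80 and 12.81. Atp5o read 12.35 in naive replicate 3, where the others lay between 12.23 and 12.25. Chance flags about 1 in 20 groups, and groups of 3 were not examined. All GC arrays lay above the naive arrays for these 3 genes.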

How the results depend on the processing

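The count of genes higher in the GC mean against naive stayed between 47 and 67 over 12 other settings (60 as reported). Over 13 other settings it stayed between 37 and 59 for GC B1-8 and between 44 and 63 for GC V23. For the GC mean, 34 of the 60 calls were kept in every setting and 52 in every leave-one-out fit. Of the 52 genes higher in GC B1-8, 25 were kept in every setting and 38 in every leave-one-out fit. Of the 56 higher in GC V23, 29 and 44 were kept. No gene passed between the lines in any of these. Centring arrays on their median moved the median of all genes to 0.16 (GC mean), 0.12 (GC B1-8) and 0.19 (GC V23), and that of the 86 genes to 0.51; quantile normalization gave 0.12 for all genes and 0.31 for the 86. With centring 4165 genes of all tested were higher and 2908 lower in the GC mean, against 3521 and 3619 as deposited, and with quantile normalization 4115 and 3182. The cause of the moves below was not tested.

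Over the other settings the complex IV median ranged from 0.28 to 0.47 in GC B1-8, 0.32 to 0.55 in GC V23 and 0.28 to 0.51 in the GC mean. Medians of the other complexes moved as follows. Averaging all probe sets of a gene gave, in GC B1-8, 0.30 (I), 0.14 (II) and 0.34 (V), in GC V23 0.34, 0.37, 0.52 and 0.37 (I, II, III, V), and in the GC mean 0.33, 0.25 and 0.53 (I, II, III). Avoiding probe sets ending in _x_at or _s_at gave 0.39, 0.56 and 0.48 for complex III in GC B1-8, GC V23 and the GC mean, and 0.48 for V in the GC mean. Quantile normalization gave 0.29, 0.44 and 0.32 (I, III, V) in GC B1-8, 0.35, 0.53, 0.55 and 0.33 (I, II, III, V) in GC V23, and 0.33, 0.53 and 0.30 (I, III, V) in the GC mean. Median centring gave 0.44 and 0.48 (I, V) in GC B1-8, 0.61, 0.74, 0.84 and 0.60 (I, II, III, V) in GC V23, and 0.52, 0.71, 0.72 and 0.51 (I, II, III, V) in the GC mean, and left 1 gene lower in GC V23.

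Leaving out 1 array at a time gave 39 to 53 higher and 2 to 5 lower genes in GC B1-8 (5 lower without naive replicate 4), 47 to 57 and 2 to 3 in GC V23, and 53 to 60 and 2 to 5 in the GC mean (2 lower without naive replicate 2). The ATP synthase median in GC B1-8 ranged from 0.33 to 0.44, that of complex II in GC V23 from 0.56 to 0.68, and that of complex II in GC B1-8 against GC V23 from −0.14 to −0.03. With the replicate block, which rests on numbers that were not shown to pair samples, 38, 47 and 50 genes were higher (GC B1-8, GC V23, GC mean).

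Some named genes reversed with the choice of probe set. Averaging all probe sets gave log2 fold changes (GC B1-8, GC V23, GC mean) of −0.39, −0.66 and −0.52 for Atp5c1, −0.60, −0.10 and −0.35 for Atp5g2, and −0.10, −0.15 and −0.12 for Atp5j2. It gave −0.28 (GC B1-8) and −0.03 (GC mean) for Atp5g1 and −0.06 and −0.02 for Cox8a. In GC V23 and the GC mean it gave −0.41 and −0.31 for Ndufab1 and −0.32 and −0.15 for Sdha. For Atp5g1, Atp5g2 and Sdha the average includes a probe set near or below log2 4, where values carry little order. In GC B1-8, GC V23 and naive samples these averaged 2.89, 3.74 and 3.90 for Atp5g1 (1444874_at). They averaged 2.66, 4.09 and 4.16 for Atp5g2 (1447714_x_at) and 3.00, 3.23 and 2.63 for Sdha (1433292_at). Avoiding _x_at and _s_at probe sets gave −1.11, −1.76 and −1.43 for Atp5c1, −0.12, −0.05 and −0.08 for Uqcrq, and 0.37 (GC B1-8) and 0.44 (GC mean) for Atp5pb. Of 3982 values of named genes under other settings, 3722 kept direction and side of the threshold, 183 lost the call, 52 gained it and 25 reversed.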

Other observations

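Probe sets that the annotation gives to several symbols stood outside the comparisons, and some read genes of the same families. Those shared by Ndufa11 and Ndufa11b (1429708_at) and by Ndufs6 and Ndufs6b (1433603_at) were higher in the GC mean against naive, by 0.90 ± 0.09 (adjusted p = 9.11e-05, limma over all probe sets) and 0.41 ± 0.08 (adjusted p = 0.00327). The 2 bright probe sets shared by Ndufb4, Ndufb4b and Ndufb4c had log2 fold changes of −0.04 ± 0.08 and 0.01 ± 0.12 and did not pass. In all, 10 such probe sets hold a gene of these families.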
